A study of Mus musculus with 4 samples.

Results

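Ttr and Rbp4, the genes of transthyretin and of retinol binding protein, are 2 of the 32285 genes counted in single-cell RNA sequencing of mouse pancreatic islets. They were taken by name, because their products travel together in plasma, and they were followed in 12404 cells from 4 libraries. Of these cells, 11085 had a dominant hormone. Insulin was dominant in 7961 cells, Gcg (glucagon) in 1569, Sst (somatostatin) in 1049 and Ppy (pancreatic polypeptide) in 506. Ttr (ENSMUSG00000061808) lies on chromosome 18 from 20665280 to 20674321 on the + strand of GRCm38, with 1 protein-coding transcript of 4 exons. Rbp4 (ENSMUSG00000024990) lies on chromosome 19 from 38116629 to 38125281 on the - strand, and its first annotated coding transcript, Rbp4-201, has 6 exons. Neither gene overlapped another annotated gene.

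Transthyretin is a secreted protein, made mostly in liver and choroid plexus, that carries thyroid hormone in plasma. It also binds retinol binding protein, the specific carrier that brings retinol (vitamin A alcohol) from liver to tissues, and the complex keeps the small carrier from being lost in the kidney. In the islet, Ttr is known as a gene of alpha cells, and Rbp4 as a gene of delta cells.

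The mice were male and either wild type (WT) or homozygous for a knock-in allele of Pax4 that the series names R192H (HH). Pax4 is a transcription factor of the beta cell lineage. Animals on the standard chow diet (SCD) were 12 weeks old, and those on the high-fat diet (HFD) were 16 weeks old after 4 weeks of the diet. The 4 groups, WT SCD, HH SCD, WT HFD and HH HFD, each had 1 library from the pooled islets of 2 to 3 mice, so library and group cannot be told apart, nor can diet and age. The libraries address how islet cells of the knock-in mice differ from those of wild-type mice on each diet. No p-value was computed between libraries. The intervals given cover counting error only, and they are exact and at the 95% level except for differences of shares.

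The libraries kept 3092, 3082, 1999 and 4231 cells in the order WT SCD, HH SCD, WT HFD and HH HFD, which is used throughout. Median counts of unique molecular identifiers (UMIs) were between 19651 and 22420 per cell. The filters kept 38.3% of the barcodes in WT HFD and between 61.6% and 67.8% in the others, and 33 to 154 predicted doublets were removed per library. Any pair of libraries shared at most 4 cell barcodes. Pax4 had 0 UMIs in insulin-dominant cells of each library. A count of 3 UMIs would have been at most 0.0885 CPM (UMIs per 1000000 UMIs of the class), the value in WT HFD. This gene gave no check of the genotypes, and a count of its UMIs would not show which allele was read. The hormone classes were set against other markers. The 6 beta cell markers other than insulin were all highest in insulin-dominant cells, as were 5 of 6 alpha cell markers in Gcg-dominant cells, 3 of 4 delta cell markers in Sst-dominant cells and 2 of 4 PP cell markers in Ppy-dominant cells. The last class therefore rests less on other markers than the rest.

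Ttr was first compared across the hormone classes, as UMIs summed over the cells of a class and scaled to CPM of that sum. Ttr was by far most abundant in Gcg-dominant cells. There it reached 28602, 28012, 27094 and 23095 CPM, with a mean of 26701 ± 2482 (SD, n = 4 libraries). It thus made up 2.86%, 2.80%, 2.71% and 2.31% of all UMIs of these glucagon cells. Ppy-dominant cells held 2139, 2073, 2875 and 1921 CPM (2252 ± 425). Insulin-dominant cells held 1303, 1341, 1341 and 2732 CPM (1679 ± 702). In insulin-dominant cells the values of 3 libraries lay close together, and HH HFD stood above them. Sst-dominant cells had least, at 142, 138, 114 and 178 CPM (143 ± 26.5).

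The Ttr level of Sst-dominant cells was set against that of cells that should lack the gene. Endothelial-like cells, with 89 to 192 cells per library, gave 623, 133, 78.4 and 104 CPM of Ttr. In WT SCD, 3 of the 127 endothelial-like cells held 86.5% of their 557 Ttr UMIs, and 88.2 CPM remained without these 3. Without the top 3 cells the other libraries gave 86.0, 67.8 and 98.6 CPM. No cells were left out of the Sst class for these values. With all cells, Sst-dominant cells lay below endothelial-like cells in WT SCD and within their counting error in HH SCD. After thinning each cell to 3000 UMIs, 30.5%, 31.8%, 24.0% and 41.9% of Sst-dominant cells had a Ttr UMI. The same share was 27.6%, 25.8%, 15.8% and 26.6% in endothelial-like cells, whose median UMIs were 6104, 5812, 7127 and 6061 before thinning, against 10367.5, 9339, 12461 and 7687.5 in Sst-dominant cells. In each library the Sst share lay above the endothelial-like share, by the smallest margin in WT SCD, and the intervals of the shares overlapped in all libraries but HH HFD. Before thinning the shares were 67.2%, 69.5%, 69.5% and 71.0% in Sst-dominant cells and 44.1%, 47.2%, 39.7% and 46.9% in endothelial-like cells.

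**Figure D1:**
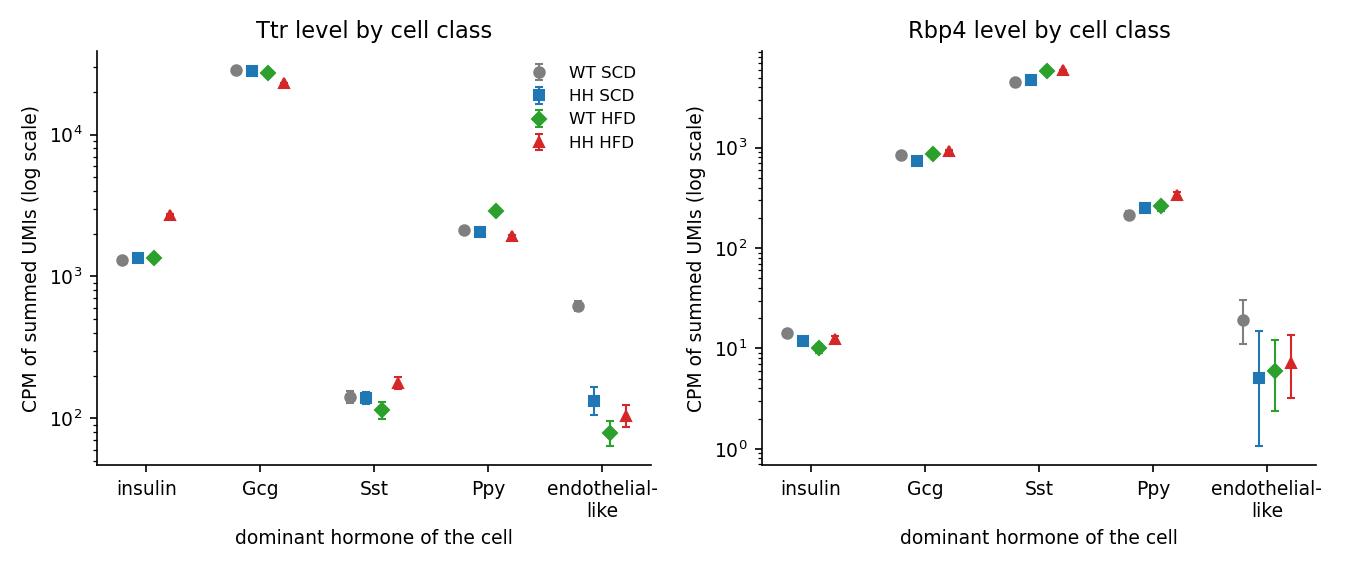
Level of Ttr (left) and Rbp4 (right) in CPM of summed UMIs, on a log scale, for the 4 hormone classes and for endothelial-like cells. Each marker is 1 library and bars are exact Poisson 95% intervals. Ttr peaks in Gcg-dominant cells, between 23095 and 28602 CPM, and Rbp4 in Sst-dominant cells, between 4525 and 5906 CPM.

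Rbp4 had another order of classes. It was highest in Sst-dominant cells, with 4525, 4722, 5853 and 5906 CPM (5252 ± 730). Gcg-dominant cells followed with 854, 745, 874 and 926 CPM (850 ± 76.0), and Ppy-dominant cells with 214, 251, 261 and 336 CPM (266 ± 51.2). Both HFD libraries lay above both SCD libraries in Sst-dominant and Gcg-dominant cells. Insulin-dominant cells gave 14.1, 12.0, 10.0 and 12.4 CPM (12.1 ± 1.69), against 19.0, 5.11, 5.90 and 7.09 in endothelial-like cells. After thinning, 2.72%, 3.04%, 2.03% and 2.65% of insulin-dominant cells had an Rbp4 UMI, and 2.36%, 1.12%, 2.74% and 3.65% of endothelial-like cells did. The insulin share was at or below the endothelial-like share in both HFD libraries, where it is read as background, and above it in both SCD libraries. The summed level was above that of endothelial-like cells in all libraries but WT SCD. Before thinning the shares were 14.5%, 11.4%, 13.1% and 13.9% in insulin-dominant cells, whose median UMIs were 26382, 26190, 29828.5 and 24207.5, and 4.72%, 3.37%, 4.79% and 4.69% in endothelial-like cells.

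The distance between neighbouring classes was set beside its spread over the 4 libraries, which are 4 different groups and not replicates. Ttr in Gcg-dominant cells exceeded Ttr in Ppy-dominant cells by 3.58 ± 0.24 on the log2 scale (SD, n = 4), or 9.42-fold to 13.5-fold. Between Ppy-dominant and insulin-dominant cells the log2 difference in Ttr was 0.48 ± 0.69. Ppy-dominant cells were higher in 3 of 4 libraries, by up to 1.10, and the difference turned to -0.51 in HH HFD. The step from insulin-dominant to Sst-dominant cells was 3.49 ± 0.33, or 9.18-fold to 15.3-fold. For Rbp4, Sst-dominant cells exceeded Gcg-dominant cells 5.30-fold to 6.70-fold, these exceeded Ppy-dominant cells 2.75-fold to 3.99-fold, and these exceeded insulin-dominant cells 15.2-fold to 27.1-fold, where the insulin class was partly at the level of endothelial-like cells and the fold is no exact measure. An exact paired permutation test, two-sided, of the 6 steps gave p = 0.125 (adjusted 0.15), the smallest p that 4 libraries allow, for all but the step between Ppy-dominant and insulin-dominant cells in Ttr (p = 0.25, adjusted 0.25). The order of the classes, and so the steps tested, was taken from these same values, and the design could not reach 0.05.

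Most Ttr UMIs of a library came from glucagon cells in 3 of the 4 libraries. Gcg-dominant cells were 12.6%, 14.5%, 13.7% and 10.8% of the cells and gave 63.9%, 63.6%, 69.9% and 35.1% of all Ttr UMIs. Insulin-dominant cells gave 32.2%, 31.7%, 26.4% and 60.8%. In HH HFD alone, the insulin cells were the larger source. Rbp4 showed no such exchange, since Sst-dominant cells, 6.43% to 10.4% of the cells, gave 67.5%, 68.3%, 68.4% and 64.1% of its UMIs.

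The genotypes were then compared within each diet in insulin-dominant cells. On SCD, Ttr was 1303 CPM (interval 1293 to 1312) in WT and 1341 CPM (1332 to 1351) in HH, a log2 ratio of 0.04 (0.03 to 0.06). On HFD, Ttr was 1341 CPM (1329 to 1354) in WT and 2732 CPM (2720 to 2744) in HH, a log2 ratio of 1.03 (1.01 to 1.04), or 2.04-fold. Of the genes with a mean of at least 50 CPM in these cells, 19 of 1305 (1.46%) were at least 1.5 times higher in HH HFD and 30 (2.3%) at least 1.5 times lower. On SCD, 0 of 1398 (0%) were that much higher and 5 (0.358%) lower. Ttr was among the 19, and 6 genes had a higher ratio on HFD. Against SCD, Ttr in HH insulin-dominant cells stood 1.03 higher on the log2 scale on HFD, and in WT cells 0.04 higher. These comparisons share libraries, and the 3 low values of Ttr span 1303 to 1341 CPM. The 6 beta cell markers other than insulin, summed over insulin-dominant cells, gave 39142, 40523, 43438 and 61425 CPM and were highest in HH HFD. That sum was led by Iapp, with a mean of 44549 CPM over the libraries. The 6 alpha cell markers other than Gcg, summed in the same way, gave 73.0, 68.2, 69.9 and 62.6 CPM and were lowest in HH HFD. Of the lists for other cell types, the sums of 5 were highest there, with 6.89, 5.83, 6.90 and 27.5 CPM for the 8 endothelial markers, 179, 217, 191 and 336 CPM for the 4 PP cell markers other than Ppy, and 41.0, 52.8, 70.8 and 86.2 CPM for the 4 delta cell markers other than Sst. The 8 ductal markers gave 168 to 194 CPM and the 8 stromal markers 0.171 to 2.88 CPM. On HFD, Ttr was also higher in HH than in WT in some classes named by cluster and not by hormone. The values went from 117 to 1708 CPM in macrophage-like, 355 to 1830 in B cell-like, 145 to 1230 in stromal-like and 890 to 2607 in ductal-like cells. In endothelial-like cells they went from 78.4 to 104 CPM. Macrophage-like cells of WT SCD held more than those of HH HFD. In several of these classes few cells held much of the Ttr, as given under other observations. These classes held 3 to 192 cells per HFD library, and their part in the result was not tested.

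The rise of the sum in HH HFD was not even across cells. The median insulin-dominant cell held 1144, 1172, 1181 and 1717 CPM of Ttr, and the cell at the 90th percentile 2109, 2110, 2203 and 4976 CPM. At the 10th percentile the values were 539, 569, 557 and 665 CPM. The log2 ratio of HH to WT on HFD was 0.26 at the 10th percentile, 0.54 at the median, 1.18 at the 90th and 1.74 at the 99th. On SCD it was 0.04 at the median and 0.00 at the 90th percentile. The distance from the 10th to the 90th percentile was 7.48-fold in HH HFD and 3.71-fold to 3.95-fold in the other libraries.

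Counted as cells after thinning to 3000 UMIs, nearly all insulin-dominant cells had some Ttr. At least 1 Ttr UMI was found in 93.6%, 94.2%, 95.1% and 96.0% of them (99.9% or more before thinning in each library), above the 15.8% to 27.6% of endothelial-like cells given above (39.7% to 47.2% before thinning). Macrophage-like cells of HH HFD had a Ttr UMI in 57.1% and at least 10 in 12.2% of 49 cells, and those of WT HFD in 18.8% and 0% of 48 cells. At least 10 Ttr UMIs were found in 3.47%, 4.05%, 3.62% and 23.7%, or 70, 80, 41 and 671 cells. The share in HH exceeded that in WT by 20.1 percentage points (interval 17.2 to 22.7) on HFD and by 0.582 (-1.14 to 2.30) on SCD. At least 20 were found in 3, 3, 0 and 176 cells. The count of 0 in WT HFD allows a share of up to 0.325% of its 1132 cells, against 6.21% in HH HFD.

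Some insulin-dominant cells reached the low end of the Ttr levels of glucagon cells. The 10th percentile of thinned Ttr UMIs in Gcg-dominant cells was 27.0, 25.7, 21.0 and 18.6. At or above the value of their own library stood 2, 2, 0 and 199 insulin-dominant cells, which is 7.02% (6.11% to 8.03%) in HH HFD. The value to be reached was lowest in HH HFD, so these counts were not taken at a common limit. The mean of thinned Ttr UMIs in Gcg-dominant cells of HH HFD was 65.0, well above that value. The variance of thinned Ttr UMIs over their mean was 5.05, 2.13, 1.96 and 8.73, and the WT SCD value went with 1 cell at 52727 CPM.

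**Figure D2:**
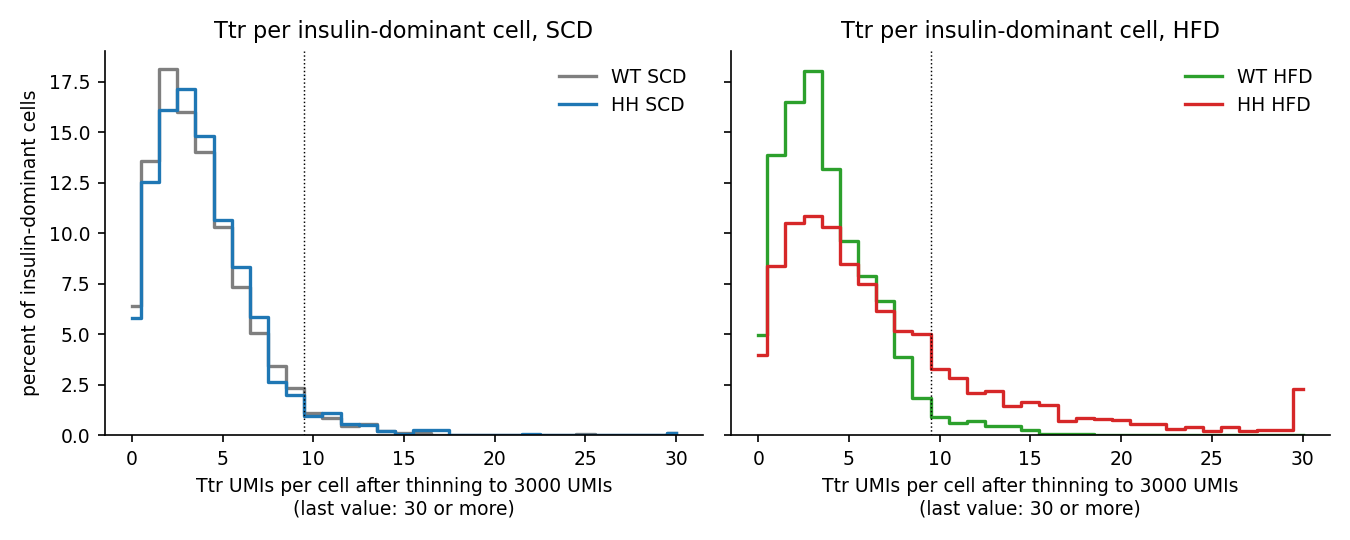
Distribution of Ttr UMIs per insulin-dominant cell after thinning each cell to 3000 UMIs, on SCD (left) and HFD (right), as percent of the cells of a library. The last value collects 30 UMIs or more, and the dotted line marks the limit of 10 UMIs. The SCD curves lie on each other, and HH HFD has 23.7% of cells at 10 or more against 3.62% in WT HFD.

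The cells with at least 10 thinned Ttr UMIs in HH HFD were described by their other counts. Mafa, a transcription factor of mature beta cells, was 132 CPM in the 671 cells and 219 CPM in the other 2163 cells of that library. In the other libraries Mafa was 355, 295 and 356 CPM in such cells and 397, 361 and 310 CPM in the rest. Mafa is among the 6 beta cell markers whose sum over insulin-dominant cells was highest in HH HFD, as given above. Gcg was 719 CPM in the 671 cells and 469 CPM in the others. Across all insulin-dominant cells of HH HFD, however, Spearman's rho of Gcg with Ttr was -0.11 after thinning. In WT SCD the Gcg values were 1960 and 360 CPM, in HH SCD 709 and 496 CPM, and in WT HFD 232 and 272 CPM. The 671 cells had a median of 28681 UMIs against 22730, median mitochondrial UMIs of 3.57% against 4.19%, and a median doublet score of 0.0475 against 0.0452. The part of depth, doublets and mitochondrial content in the share was not tested beyond the values below.

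The difference on HFD grew with the depth of the cell. Insulin-dominant cells of each diet were divided into 5 bins of total UMIs. From the lowest to the highest bin, WT HFD gave 1126, 1175, 1264, 1386 and 1403 CPM of Ttr and HH HFD 1367, 2122, 2670, 3320 and 3656 CPM. The log2 ratios were 0.28, 0.85, 1.08, 1.26 and 1.38, so HH HFD lay above WT HFD at every depth. On SCD the ratios of the 5 bins lay between -0.06 and 0.11.

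The counts of Gcg itself were set beside those of Ttr. Insulin-dominant cells held 421, 505, 270 and 538 CPM of Gcg, with HH above WT on both diets. For each Gcg UMI they held 3.09, 2.65, 4.96 and 5.08 Ttr UMIs, and Gcg-dominant cells only 0.0940, 0.0947, 0.0772 and 0.0690. Endothelial-like cells, with 0.0867, 0.202, 0.122 and 0.117 Ttr UMIs per Gcg UMI, were closer to the ratio of glucagon cells than to that of insulin cells, and near it in WT SCD alone. In insulin-dominant cells with no Gcg UMI after thinning, Ttr on HFD was 1340 CPM in WT and 2841 CPM in HH (log2 ratio 1.08), and in those with at least 1 it was 1343 and 2686 CPM. Thinning left these subsets as draws from cells that nearly all held Gcg, since before it each insulin-dominant cell of HH HFD had a Gcg UMI and only 3 of WT HFD had 0. The part of free glucagon cell RNA in Ttr was not tested by this split.

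Mafa gave subsets that differed more. In insulin-dominant cells without a Mafa UMI after thinning, Ttr on HFD was 1326 CPM in WT and 2967 CPM in HH (1.16), and with at least 1 it was 1354 and 2342 CPM (0.79). On SCD the ratios were 0.14 and -0.02. When the subsets were taken before thinning, the HFD values were 1047 and 2924 CPM (1.48) in the 56 and 363 cells with 0 Mafa UMIs, and 1354 and 2705 CPM (0.999) in the others. The SCD ratios then turned to -0.17 and 0.05. On HFD the difference between HH and WT was larger in cells without Mafa under both ways of dividing the cells.

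The insulin-dominant cells of the groups also lay in different clusters. WT HFD had 47.1% of them in cluster 2 and 37.7% in cluster 3, and HH HFD had 47.1% in cluster 3, 31.9% in cluster 15 and 9.74% in cluster 2. Cluster 15 was led by Dapl1, Fkbp11, Nucb2 and Derl3, while 98.9% of its 915 insulin-dominant cells were from HH HFD and cluster and library cannot be told apart in it. It held 442 of the 671 cells with at least 10 Ttr UMIs. Its HH HFD cells gave 4084 CPM of Ttr. Within cluster 3, Ttr was 1422 CPM in WT HFD and 2010 CPM in HH HFD (0.50), within cluster 10 it was 1291 and 2175 CPM (0.75), and within cluster 2 it was 1298 and 1234 CPM (-0.07). Without cluster 15, an alternative chosen after seeing the data, the HFD values were 1339 and 1923 CPM, a log2 ratio of 0.52 (0.51 to 0.54) that stayed under 1.5-fold.

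**Figure D3:**
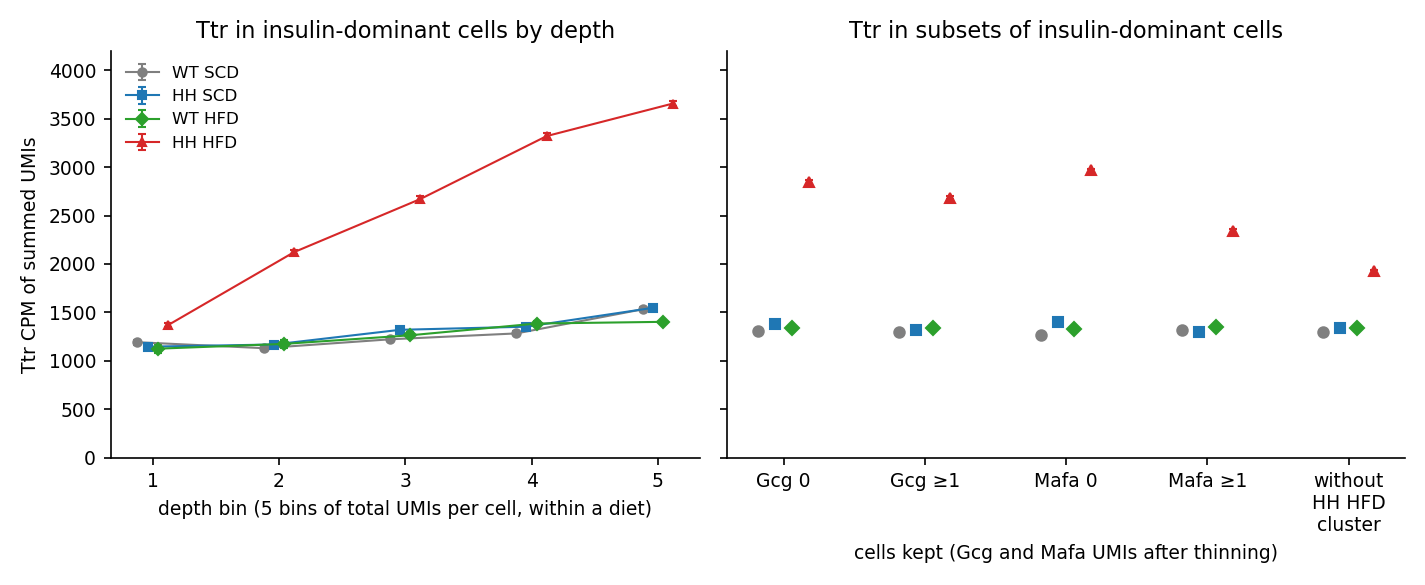
Ttr in CPM of summed UMIs in insulin-dominant cells, by bin of total UMIs per cell (left, 1 is the lowest) and in subsets of cells (right), with exact Poisson 95% intervals. HH HFD lies above the other libraries in each bin and subset drawn here, from 1367 CPM in the lowest bin to 3656 CPM in the highest.

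In Gcg-dominant cells, where Ttr is most abundant, it was slightly lower in HH on HFD. The log2 ratio of HH to WT was -0.03 (-0.04 to -0.02) on SCD and -0.23 (-0.24 to -0.22) on HFD, from 27094 and 23095 CPM. Neither reached 1.5-fold, and 0.332% of 2106 genes did on SCD and 0.624% of 1924 on HFD, in either direction. The median cell held 24345, 24838, 20320 and 18338 CPM, with both HFD libraries below both SCD libraries. On HFD the ratio was between -0.38 and -0.01 at each percentile computed. Median UMIs of these cells were 15998 in WT HFD and 9971 in HH HFD, and with equal weight for 5 depth bins the HFD ratio turned to 0.19. The direction on HFD therefore turned with the weighting of depths. At least 20 thinned Ttr UMIs were found in 95.4%, 93.8%, 90.5% and 88.8% of the glucagon cells.

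In Ppy-dominant cells Ttr gave a log2 ratio of HH to WT of -0.05 (-0.10 to 0.01) on SCD and -0.58 (-0.64 to -0.52) on HFD, from 2875 and 1921 CPM. The shares of genes past 1.5-fold were 1.21% of 1567 on SCD and 0.886% of 1693 on HFD, and Ttr lay just short of that fold on HFD. On SCD the ratio was -0.29 (-0.36 to -0.23) with a 10-fold hormone rule and -0.18 (-0.24 to -0.11) with classes taken from cluster names, but 0.02 with equal weight for each cell and 0.09 with free RNA subtracted, a correction that in WT SCD rests mostly on 3 endothelial-like cells. A single cell of WT HFD, with 51609 CPM of Ttr and 92645 CPM of Ppy, held 19.8% of the Ttr UMIs of its class. Without the top cell of each library the HFD ratio was -0.33, and with classes taken from cluster names it was -0.15. It passed 1.5-fold, at -0.69, with a 10-fold hormone rule, at -0.68 with equal weight for each cell, at -0.60 with free RNA subtracted and at -0.60 over depth bins. The median cells, at 1696, 1382, 1549 and 1523 CPM, lay close together on HFD, so the difference of the sums rests in part on that cell.

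In Sst-dominant cells the ratio was -0.04 (-0.23 to 0.16) on SCD and 0.64 (0.40 to 0.89) on HFD, from 114 and 178 CPM. Past 1.5-fold were 0.225% of 2667 genes on SCD and 0.705% of 2695 on HFD. The interval on SCD includes no change, and on HFD the level of endothelial-like cells was 78.4 and 104 CPM. The HFD ratio fell under 1.5-fold under 4 alternatives, to 0.37 with equal weight for 5 depth bins, 0.58 with the UMIs of endothelial-like cells subtracted, 0.56 with a 10-fold hormone rule and 0.50 under a looser filter on cells. With classes taken from cluster names it was 1.16.

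**Figure D4:**
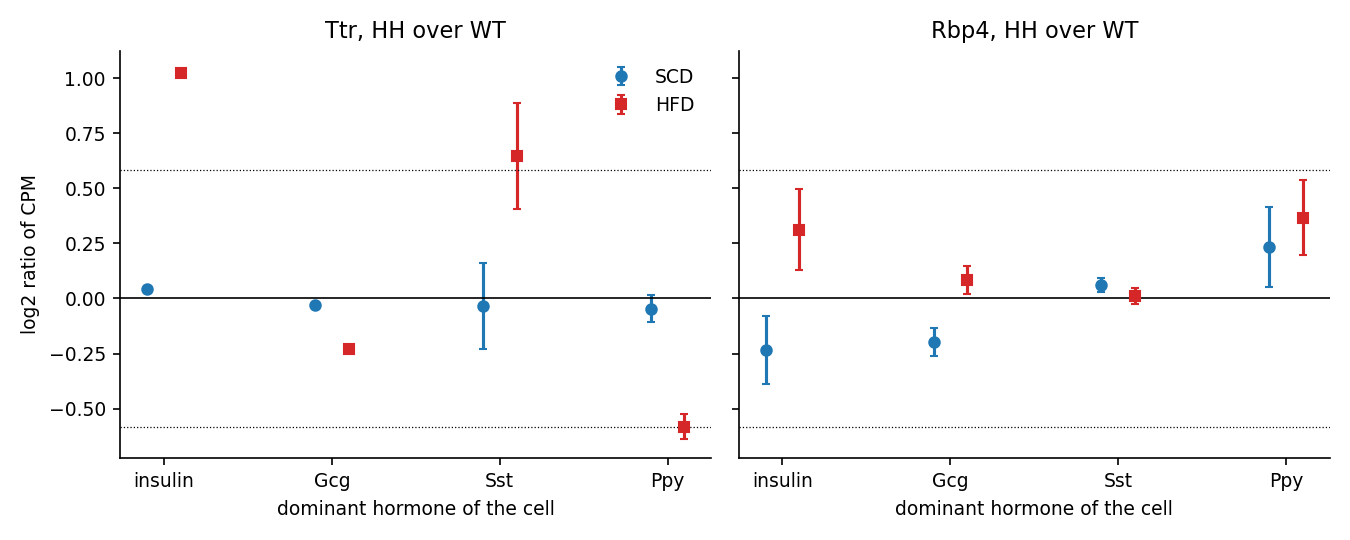
Log2 ratio of HH to WT for Ttr (left) and Rbp4 (right) in each hormone class and diet, with exact 95% intervals for counting error. Dotted lines mark 1.5-fold in either direction. Ttr in insulin-dominant cells on HFD stands at 1.03, and Rbp4 lies between -0.24 and 0.37 in all 8 comparisons.

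Rbp4 was compared between genotypes in the same way. In Sst-dominant cells, where it is most abundant, the log2 ratio of HH to WT was 0.06 (0.03 to 0.10) on SCD and 0.01 (-0.02 to 0.05) on HFD. In Gcg-dominant cells it was -0.20 (-0.26 to -0.13) and 0.08 (0.02 to 0.15), and in Ppy-dominant cells 0.23 (0.05 to 0.42) and 0.37 (0.20 to 0.54). In insulin-dominant cells, at 10.0 to 14.1 CPM, it was -0.24 (-0.39 to -0.08) and 0.31 (0.13 to 0.50). As computed here, none of these 8 ratios reached 1.5-fold. In insulin-dominant cells on HFD the ratio passed it with doublets kept (1.62), under the looser filter (0.78) and without cluster 15 (0.79), and on SCD it turned to 0.54, 0.26 and 0.23 with doublets kept, under the looser filter and with free RNA subtracted. In Sst-dominant cells on HFD the ratio turned to -0.020 with classes taken from cluster names, and was 0.12 (0.07 to 0.17) with a 10-fold hormone rule and 0.21 over depth bins. In Ppy-dominant cells it fell to 0.047 (-0.14 to 0.24) with those classes and to 0.046 (-0.16 to 0.25) with the 10-fold rule on SCD, and to 0.13 (-0.06 to 0.32) with the 10-fold rule on HFD. With classes taken from cluster names it was 0.23 (0.04 to 0.42) on HFD. The ratio in Ppy-dominant cells kept its sign under all 13 alternatives on each diet, but its size rests on how the class is drawn.

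Between the diets, Rbp4 in Sst-dominant cells was 1.29-fold higher on HFD in WT (log2 0.37, interval 0.34 to 0.41) and 1.25-fold higher in HH (0.32, 0.29 to 0.36). The difference ran through the distribution. The median somatostatin cell held 4002, 4277, 5439 and 5449 CPM, the 10th percentile was 1848, 2105, 2458 and 2333 CPM and the 90th 7958, 8138, 10285 and 10246 CPM. At all 3 of these percentiles, both HFD libraries lay above both SCD libraries. An Rbp4 UMI was found after thinning in 100%, 99.7%, 100% and 100% of these cells, and at least 20 in 17.9%, 22.4%, 32.5% and 36.0%. Rbp4 did not reach 1.5-fold between the diets in either genotype. Of the genes with a mean of at least 50 CPM here, 231 of 2718 in WT and 294 of 2659 in HH had a higher ratio of HFD to SCD. At least 1.5 times higher on HFD were 68 of these genes in WT and 49 in HH, and 106 and 122 were that much lower. With age and diet joined and 1 library per group, the size of the Rbp4 difference has no replicate check.

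In the glucagon cells Rbp4 was widespread at a lower level. The median Gcg-dominant cell held 735, 679, 774 and 851 CPM, and 83.4%, 81.7%, 87.5% and 86.4% of the cells had an Rbp4 UMI after thinning. HH on HFD stood 0.31 (0.25 to 0.38) above HH on SCD on the log2 scale, and WT 0.03 (-0.03 to 0.10). A higher ratio of HFD to SCD than that of Rbp4 was found for 145 of 1995 genes in HH and 679 of 2000 in WT. In Ppy-dominant cells 41.8%, 47.2%, 44.9% and 57.8% had an Rbp4 UMI and the median was 189, 196, 190 and 258 CPM. In insulin-dominant cells the 1% of cells with most Rbp4 held 50.8%, 53.4%, 44.8% and 50.9% of its UMIs, where the same share for Ttr was 5.12%, 4.81%, 3.72% and 8.64%.

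**Figure D5:**
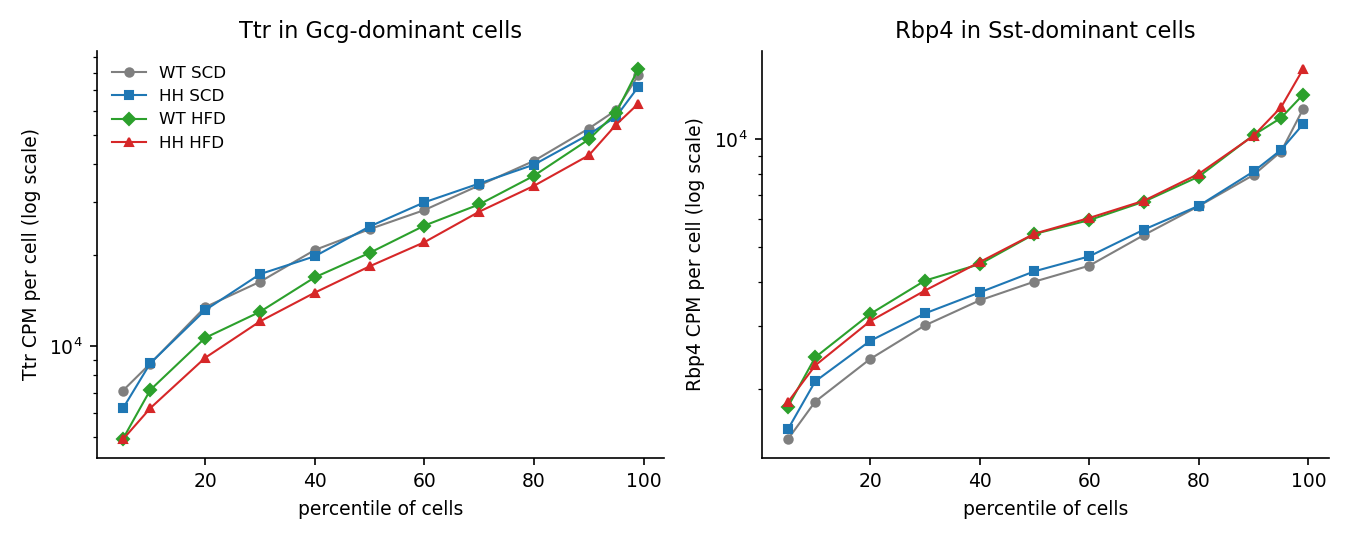
CPM per cell at percentiles of the cells of each library, on a log scale, for Ttr in Gcg-dominant cells (left) and Rbp4 in Sst-dominant cells (right). For Rbp4 the median lies at 5439 and 5449 CPM in the HFD libraries and at 4002 and 4277 CPM in the SCD libraries.

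Ttr and Rbp4 did not vary together. Over the 16 sums of 4 classes in 4 libraries, which share libraries and classes, Pearson's r of log2(CPM + 1) was -0.25. Across the cells of a class in a library, of 69 to 2834 cells, Spearman's rho of thinned UMIs lay between -0.12 and 0.12, which in sparse counts is no finding.

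The genes with the pattern most like that of Ttr over the 16 sums, among 1934 genes with a mean of at least 50 CPM, were Slc7a2 (r = 0.979), Tmsb15b2 (0.956), Lpl (0.950), Slc3a2 (0.945) and Pappa2 (0.923). Slc7a2, a transporter of basic amino acids, also stood in the list of alpha cell markers. Lpl is lipoprotein lipase, Slc3a2 the heavy chain of amino acid transporters, and Pappa2 a protease of insulin-like growth factor binding proteins. All 5 were highest in Gcg-dominant cells, as Ttr was. For Rbp4 the 5 were Klhdc8b (0.989), Grcc10 (0.988), Calm2 (0.988), Mrps33 (0.988) and Ywhae (0.987), all highest in Sst-dominant cells. Calm2 encodes calmodulin, Mrps33 a protein of the mitochondrial ribosome and Ywhae a 14-3-3 protein. These values describe 16 points that fall into 4 classes.

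Across insulin-dominant cells the likeness to Ttr was weak. Of 262 genes with a mean of at least 200 CPM there, the highest means over 4 libraries of Spearman's rho were those of Ssr4 (0.153), Iapp (0.143), Chga (0.131), Scg2 (0.104) and Manf (0.104). Ssr4 belongs to the translocon of the endoplasmic reticulum, Iapp is islet amyloid polypeptide, Chga and Scg2 are granins of the secretory granule, and Manf is a factor of endoplasmic reticulum stress. In HH HFD the values were 0.349 for Ssr4, 0.392 for Iapp, 0.239 for Chga, 0.327 for Scg2 and 0.150 for Manf, each above that of the other libraries. Mitochondrial transcripts were lowest, led by mt-Co2 (-0.155). Gcg gave -0.03 and Mafa -0.03, with -0.11 and -0.17 in HH HFD. The points are cells of 1 library, thinned to the same depth.

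Other genes of retinoid and thyroid hormone handling were then examined, and the retinoid genes were low in these cells. Of 30 retinoid genes, 0 reached a mean of 50 CPM in insulin-dominant cells, and only the receptors Rxra and Rxrb reached 10 CPM over the 16 sums. Both were highest in Gcg-dominant cells, at means of 31.4 and 25.3 CPM, and their log2 ratios of HH to WT in insulin-dominant cells were -0.31 and -0.24 on SCD and -0.09 and -0.26 on HFD. Of 13 thyroid hormone genes, 1 was abundant enough on SCD and 2 on HFD, and 0 passed 1.5-fold in either direction, where 1.46% of all genes were higher and 2.3% lower on HFD, a count from which nothing can be read for so few genes. Dio1 reached the minimum of 50 CPM on HFD only through HH HFD. The amino acid and thyroid hormone transporter Slc16a10 was 82.0, 70.3, 87.7 and 74.2 CPM, lower in HH on both diets. Dio1, a deiodinase of thyroid hormone, was 43.8, 46.1, 49.8 and 64.8 CPM.

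The remaining thyroid hormone genes with at least 10 CPM over the 16 sums were the transporters Slc7a5 and Slc7a8, the receptors Thra and Thrb, and Serpina7. In insulin-dominant cells Slc7a5 lay between 23.2 and 32.1 CPM, Slc7a8 between 30.1 and 38.2, Thra between 7.88 and 13.1 and Thrb between 5.19 and 5.70. Serpina7 encodes thyroxine binding globulin, another plasma carrier of thyroid hormone beside transthyretin. It was 3.66, 3.19, 4.78 and 26.7 CPM in insulin-dominant cells, with HH HFD far above the others (log2 ratio 2.48 on HFD and -0.20 on SCD). Thra, a thyroid hormone receptor, had ratios of -0.64 (-0.82 to -0.45) on HFD and -0.26 on SCD, both towards less in HH. Both were too low for the count of genes past 1.5-fold.

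Of 16 genes of plasma proteins made mostly in liver, 2 were abundant enough in insulin-dominant cells on HFD and both were at least 1.5 times higher in HH, where 1.46% of all genes were. So few genes allow no reading of the list, and Clu reached the minimum of 50 CPM only through HH HFD. They were Gc, the vitamin D binding protein, and Clu, the chaperone clusterin. Gc was 28.5, 30.8, 57.4 and 148 CPM, so it was higher on HFD than on SCD in WT too, and highest in HH HFD (log2 ratio 1.37). Clu was 34.8, 34.3, 42.6 and 66.8 CPM (0.65) and was most abundant in Sst-dominant cells, with a mean of 614 CPM. The apolipoproteins Apoa2 and Apoe and the protease inhibitor precursor Ambp stayed at or below 10.0 CPM in insulin-dominant cells and were highest there in HH HFD. Serpina7 and Gc were also among the 10 leading genes of cluster 15.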

How the data were processed

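Islets were dissociated, loaded on a droplet 3-prime platform and processed by the authors with Cell Ranger 6.0 against GRCm38, and the deposited filtered matrices hold UMI counts in whole numbers for each gene and barcode. These counts carry neither the ambient RNA correction nor the doublet removal of the study, whose cell annotation was not used here.

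Cells were kept with under 10% mitochondrial UMIs, 3000 to 50000 UMIs and 2000 to 5000 genes. The cells with the highest Scrublet scores were removed per library at an expected rate of 0.8% per 1000 cells. All libraries were clustered together, without integration, on 3000 variable genes other than Ttr and Rbp4, 30 principal components, 20 neighbours and Leiden resolution 1 (seed 1). Clusters were called X-like from marker lists, when at least 3 markers reached 0.25 of their highest mean over clusters and no other type led. These names are rebuilt, and differences from the study can come from that. A cell outside the named non-endocrine clusters belonged to a hormone class when that hormone held at least 2% of its UMIs and at least 2 times the next hormone. Shares of cells were taken after thinning each cell to 3000 UMIs, which left out no cell.

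With 1 library per group no count model was fitted. Log2 ratios of CPM carry exact conditional binomial intervals, levels exact Poisson intervals and shares exact Clopper-Pearson intervals. The interval of a difference of shares was taken from the outer limits of both shares and is not itself exact. Genes counted past 1.5-fold had a mean of at least 50 CPM in the class. Named genes were Ttr and Rbp4, list genes with a mean of at least 10 CPM over the 16 sums, the 5 genes most like each member, and Mafa and Gcg. Mitochondrial transcripts, Ins1 and Ins2, cluster leaders and Pax4 were named beside them after their values were seen. The genes, lists and comparisons were chosen with earlier results of these data known. Positions came from GENCODE M21, whereas the annotation used by the authors is not given in the sources used here. The intervals were tested on simulated counts. Alternatives covered the filters, doublets, the rule for a class, scaling, weighting of cells, free RNA and depth. Python 3.11.15, numpy 2.4.6, scipy 1.17.1, pandas 2.3.3, scanpy 1.11.5, anndata 0.12.19, igraph 0.11.9 and matplotlib 3.10.9 were used.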

Additional observations from a re-analysis of the deposited data

Results flagged for a closer look

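The log2 ratio of HH to WT of Rbp4 took opposite signs on the 2 diets in 2 hormone classes. In insulin-dominant cells it was -0.24 (interval -0.39 to -0.08) on SCD and 0.31 (0.13 to 0.50) on HFD, at a level of 10.0 to 14.1 CPM, against 5.11 to 19.0 CPM in endothelial-like cells. In Gcg-dominant cells it was -0.20 (-0.26 to -0.13) on SCD and 0.083 (0.02 to 0.15) on HFD, at 745 to 926 CPM. The signs are not opposite under all settings. In insulin-dominant cells the SCD ratio was 0.54 with doublets kept, 0.23 with free RNA subtracted and 0.26 under a looser filter, and in Gcg-dominant cells the HFD ratio was -0.021 over depth bins. Each diet has 1 library per genotype, and whether the ratios differ between the diets was not tested.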

How the results depend on the processing

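The rise of Ttr in insulin-dominant cells of HH HFD (log2 1.03) kept its sign under all 13 alternatives, from 0.52 to 1.06. It was 1.05 without hormone and mitochondrial genes, 1.06 with doublets kept, 0.92 with equal weight for each cell, 0.98 under a looser filter, 0.97 over depth bins, 1.06 with size factors, 0.95 without the top 1% of cells and 0.52 without the cluster mostly of HH HFD, the only one under 1.5-fold. On SCD (0.04) it was 0.10 without hormone and mitochondrial genes, 0.060 with a 10-fold hormone rule, 0.025 with doublets kept, 0.021 with equal weight, 0.20 with free RNA subtracted, 0.10 under the looser filter and 0.084 with size factors. Ttr in Gcg-dominant cells turned to 0.0043 with the 10-fold rule and 0.053 over depth bins on SCD, and to 0.19 over depth bins on HFD. Rbp4 in Gcg-dominant cells on HFD turned to -0.021 over depth bins. In insulin-dominant cells, Rbp4 on SCD (-0.24) turned to 0.54 with doublets kept, 0.23 with free RNA subtracted and 0.26 under the looser filter, and was -0.41 over depth bins. On HFD (0.31) it was 0.018 with the 10-fold rule, 1.62 with doublets kept, 0.58 with equal weight, 0.78 under the looser filter and 0.79 without the cluster mostly of HH HFD. The excess of HH over WT in the share of insulin-dominant cells with at least 10 Ttr UMIs on HFD was 6.21 percentage points at a limit of 20. At a minimum of 20 CPM, 84 genes passed 1.5-fold on HFD (49 at 50 CPM) and 10 on SCD (5). The cause was not tested. Leaving out unnamed clusters or the cluster mostly of HH HFD was chosen after seeing the data. Free RNA subtraction gave no value for Ttr in Sst-dominant cells on SCD, since a subtracted level was not above 0. For Ttr on SCD it rests on WT SCD endothelial-like cells, of whose Ttr UMIs 86.5% came from 3 cells. No paired analysis of genotype or diet was possible because each group has 1 library, and no library could be left out of those comparisons. With about 10 CPM in insulin-dominant cells, depth limits Rbp4 there.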

Other observations

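Ttr and Rbp4 were both counted in the sums of cells with no single dominant hormone. The 43, 40, 16 and 52 cells in which no hormone reached 2 times the next gave 3280, 5106, 4244 and 4848 CPM of Ttr and 2497, 2861, 2372 and 1722 CPM of Rbp4. In the order WT SCD, HH SCD, WT HFD and HH HFD, macrophage-like cells (17, 9, 48 and 49 cells) gave 2058, 769, 117 and 1708 CPM of Ttr, where 1 cell held 89.5%, 71.6%, 50% and 7.60% of these UMIs. B cell-like cells (9, 12, 60 and 42) gave 50.1, 1307, 355 and 1830 CPM, with 20%, 75.4%, 19.8% and 47.9% of the UMIs in 1 cell. Stromal-like cells (46, 16, 47 and 108) gave 862, 436, 145 and 1230 CPM, with 65.6%, 81.8% and 41.7% in 1 cell in the first 3 libraries and 54.9% in 2 cells in HH HFD. The median cell held 788 CPM in macrophage-like, 119 in B cell-like and 129 in stromal-like cells of HH HFD. Ductal-like cells, 19, 7, 3 and 28 cells, gave 1077, 1251, 890 and 2607 CPM of Ttr.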
